A study of Mus musculus with 6 samples.

Results

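Immediate early transcription factors were examined in neurons sorted by their green fluorescent protein (GFP) signal from E14.5 mouse embryonic brain. The set held 10 genes, Nr4a1, Nr4a3, Fos, Fosb, Jun, Junb, Egr1, Egr2, Egr4 and Ier2. They were taken as all non-control probes whose symbol in the platform annotation was one of these names, which gave 11 of 41174 probes and 10 of 18295 genes. The genes were chosen with the values of the comparison below already known, so those values are given as a description. One RNA came from neurons labelled Pitx3(gfp/-), also named Pitx3-GFP/AK, and is called null here. The neurons it was set against were labelled Pitx3(gfp/+), also named Pitx3-GFP/wt, and are called heterozygous. Both genotypes carry the GFP allele of Pitx3, a homeobox gene of midbrain dopaminergic neurons, and neurons of both were purified by fluorescence-activated sorting. Each of 3 heterozygous pools combined several embryos, whereas the null RNA was 1 pool whose number of embryos the labels do not give. Each heterozygous pool met that null pool on 2 dual-colour arrays of opposite dye orientation, 6 arrays in all.

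Immediate early genes are transcribed within minutes of a stimulus without new protein synthesis, through factors already present in the cell such as CREB and serum response factor. Neuronal activity and growth factors induce them, and so does the enzymatic and mechanical dissociation of tissue before sorting. Fos and Jun proteins pair into the AP-1 dimer, Egr proteins are zinc finger factors, and Nr4a proteins are orphan nuclear receptors, of which Nr4a2 is needed to make dopaminergic neurons.

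A probe counted as well above background where its signal was higher than the background median around the spot by over 2 SDs of that background. Per array and RNA, 47.6% to 71.4% of genes reached this. Pitx3 had a log2 ratio of null over heterozygous of -0.084 ± 0.32 (SD, n = 3 pools). Where its probe lies relative to the altered allele was not given, and the ratio is therefore no check of the genotypes. Of 12 dopaminergic markers, Th, which encodes tyrosine hydroxylase, and the homeobox gene En1 never reached this level in either RNA. Nr4a2, Pitx3, Foxa2 and Lmx1b reached it in both RNAs on each of the 6 arrays, and the dopamine transporter gene Slc6a3 reached it on 2 of 6 arrays in null RNA and 6 of 6 in heterozygous RNA. Its ratio passed at -0.42 ± 0.018, with the null signal near background.

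The promoters of the 4 genes with the lowest ratios and of Junb, with a log2 ratio of -0.12, are shown. The reason is that immediate early genes are switched on through short elements close to the start of transcription. Each line gives the 250 bases before the RefSeq start in GRCm38.p6, 5′ to 3′ on the strand of the gene. Capitals mark TGACG on either strand, the core of the cyclic AMP response element that CREB binds. The windows are chr15:101266596-101266845 on the plus strand for Nr4a1, chr12:85473640-85473889 on the plus strand for Fos, chr6:85513590-85513839 on the minus strand for Egr4, chr4:95052223-95052472 on the minus strand for Jun and chr8:84978749-84978998 on the minus strand for Junb.
Nr4a1: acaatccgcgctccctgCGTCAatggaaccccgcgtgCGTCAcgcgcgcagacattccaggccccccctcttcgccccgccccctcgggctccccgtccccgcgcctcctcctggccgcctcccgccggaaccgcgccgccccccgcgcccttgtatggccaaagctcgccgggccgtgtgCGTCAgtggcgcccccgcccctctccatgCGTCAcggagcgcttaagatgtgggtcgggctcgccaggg
Fos: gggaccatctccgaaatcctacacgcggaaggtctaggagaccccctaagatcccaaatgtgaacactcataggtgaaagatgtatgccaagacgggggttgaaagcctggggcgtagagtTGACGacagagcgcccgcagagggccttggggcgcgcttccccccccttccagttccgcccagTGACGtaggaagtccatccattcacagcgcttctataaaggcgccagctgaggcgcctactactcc
Egr4: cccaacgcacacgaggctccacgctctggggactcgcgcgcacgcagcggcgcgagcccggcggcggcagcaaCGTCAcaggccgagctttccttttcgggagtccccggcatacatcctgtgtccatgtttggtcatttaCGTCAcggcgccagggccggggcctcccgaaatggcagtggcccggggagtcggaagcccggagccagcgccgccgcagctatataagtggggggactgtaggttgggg
Jun: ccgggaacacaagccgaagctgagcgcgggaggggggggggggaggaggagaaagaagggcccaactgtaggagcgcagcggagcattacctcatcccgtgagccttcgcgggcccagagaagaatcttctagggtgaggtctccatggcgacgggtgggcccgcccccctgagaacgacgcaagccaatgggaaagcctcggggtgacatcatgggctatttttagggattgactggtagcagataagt
Junb: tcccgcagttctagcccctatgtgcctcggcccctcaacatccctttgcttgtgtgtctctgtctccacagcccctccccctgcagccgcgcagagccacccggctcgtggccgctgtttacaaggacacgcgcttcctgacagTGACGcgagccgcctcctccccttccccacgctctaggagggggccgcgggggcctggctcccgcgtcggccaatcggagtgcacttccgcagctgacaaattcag

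The RefSeq promoter table matched 8 of the 10 genes. TGACG was found on either strand 4 times in the window of Nr4a1, 2 times in that of Fos, 2 times in that of Egr4 and 0 times in that of Jun. The windows of Fosb, with a log2 ratio of 0.023, and Junb, with -0.12, held it 1 time each. Nr4a3, whose probe was not above background, held it 4 times, and Egr2, with 5 annotated starts, held it 0 to 2 times. Of 32851 promoter windows of the same length, 17.8% held it at least once and 3.9% at least 2 times. These windows were not matched to the factors for base composition, so no enrichment can be read from the shares here. The match nearest to the start lay 40 to 36 bases before it in Nr4a1 and 66 to 62 bases before it in Fos. The full palindrome TGACGTCA, which contains TGACG, the AP-1 letters TGANTCA and the NBRE letters AAAGGTCA, which Nr4a receptors bind, were in 0 of these windows, against 1.55%, 6.75% and 1.34% of all windows. The Egr letters GCGNGGGCG were in the windows of Nr4a1 and Fosb and in 4.7% of all windows. A CArG box, the element of serum response factor, was present before 4 of the 5 starts of Egr2 and in 1.47% of all windows. The windows of starts 3, 4 and 5, counted from upstream, overlap and hold the same box, so these are not separate finds. Only exact letters were counted. The Jun window holds TGACATCA, 1 letter off the palindrome TGACGTCA, so its count of 0 does not cover close variants. Variants were not searched for in the other windows. A match is a string of letters and not evidence of binding, and these windows leave out all sequence farther upstream.

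Of the 10 genes, 9 reached a signal well above background in both RNAs on each of the 6 arrays. The exception was Nr4a3, a nuclear receptor gene, whose probe read 43.4 over a background of 41.1 in null RNA and 44.3 over 39.7 in heterozygous RNA. It was well above background on 0 of 6 arrays, so no ratio is given. In the fit over all genes (limma, ratio against 0 over 3 pools, Benjamini-Hochberg adjustment), 4 of the 10 genes were lower in null RNA at an adjusted p under 0.05, and 0 were higher. Over all genes, 4.96% passed, of which the lower ones made up 1.87% of genes and the higher ones 3.09%. The 4 genes were Nr4a1, Fos, Egr4 and Jun, and their choice rested on this contrast. Levels below are log2 intensities, averaged over the 2 arrays of a pool, with the null RNA measured anew beside each heterozygous pool. In bulk RNA, fewer cells of a type and less RNA per cell cannot be told apart. As the null RNA was 1 pool, genotype and the preparation of that pool cannot be told apart either. The SDs and p-values hold no spread between null pools.

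Nr4a1 encodes a nuclear receptor induced by activity and stress. Its levels were 8.35, 8.29 and 8.28 in null RNA, against 9.07, 9.08 and 9.18 in heterozygous pools 1, 2 and 3. All 3 null readings lay below all heterozygous ones. The log2 ratio was -0.73, -0.77 and -0.80 on the arrays of pools 1, 2 and 3 that had null RNA in Cy5, and -0.70, -0.80 and -0.99 after the swap. The mean was -0.80 ± 0.092 (SD, n = 3 pools), a level 1.74-fold lower in null RNA.

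Fos encodes the inducible partner of Jun in AP-1. Its levels were 8.88, 8.70 and 8.88 in null RNA, against 9.56, 9.63 and 9.65 in the heterozygous pools, again without overlap. Its log2 ratio was -0.78, -0.73 and -0.81 on the arrays with null RNA in Cy5 and -0.58, -1.12 and -0.74 after the swap. The mean was -0.79 ± 0.12 (SD, n = 3), or 1.73-fold lower in null RNA, and the 2 arrays of pool 2 lay farthest apart.

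Fosb encodes a related factor whose products accumulate under repeated stimulation. It read 7.122, 7.023 and 6.953 in null RNA and 7.008, 7.003 and 7.018 in the heterozygous pools. These ranges overlapped. The log2 ratio was 0.023 ± 0.090, with 2 of 6 arrays below 0. Fos and Fosb, of one family, thus differed in ratio by more than the spread of either gene over the pools.

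Jun encodes the basic leucine zipper partner shared by the Fos proteins. It read 8.31, 8.28 and 8.32 in null RNA and 8.66, 8.83 and 8.96 in heterozygous pools 1, 2 and 3. The groups did not overlap, and the heterozygous pools were spread more widely than the repeated null readings. For Fos and Fosb above, and for the brighter probe of Junb below, the null readings were spread more widely instead. The log2 ratio was -0.47, -0.57 and -0.62 on the arrays with null RNA in Cy5 and -0.22, -0.54 and -0.66 after the swap, with a mean of -0.51 ± 0.15 (SD, n = 3).

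Junb encodes a Jun family protein that can oppose Jun at some targets, and it had 2 probes. Its brighter probe read 9.13, 9.05 and 9.19 in null RNA and 9.19, 9.23 and 9.30 in the heterozygous pools, with a log2 ratio of -0.12 ± 0.062. These levels were apart by the narrowest margin, 9.187 as the highest null reading and 9.189 as the lowest heterozygous one. The second probe gave -0.062 ± 0.056, and its levels overlapped between the genotypes. Both probes read closer to 0 than Jun did on every pool.

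**Figure D1:**
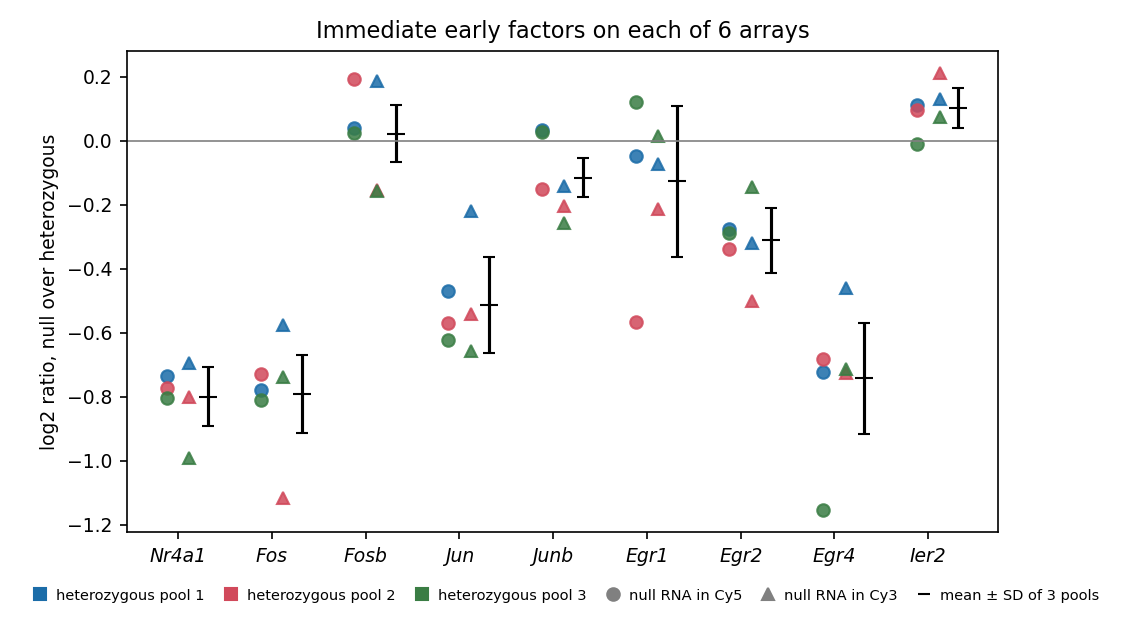
Log2 ratio of null over heterozygous RNA (vertical axis) for the 9 factors above background (horizontal axis) on each of 6 arrays. Colours are heterozygous pools, circles have the null RNA in Cy5, triangles have it in Cy3, and bars give the mean ± SD of 3 pools; Nr4a1, Fos, Jun, Egr2 and Egr4 lie below 0 on all 6 arrays, while Fosb, Junb, Egr1 and Ier2 have arrays on both sides of 0.

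The Egr family, zinc finger factors that bind GC-rich elements, was also uneven. Egr4 read 6.80, 6.78 and 6.79 in null RNA, against 7.39, 7.48 and 7.72 in the heterozygous pools, with no overlap. Its log2 ratio was -0.72, -0.68 and -1.16 on the arrays with null RNA in Cy5 and -0.46, -0.73 and -0.71 after the swap. The mean was -0.74 ± 0.17 (SD, n = 3), or 1.67-fold lower in null RNA. Its signal was dim, with means of 102.6 over a background of 41.9 in null RNA and 174.6 over 41.8 in heterozygous RNA. The size of this ratio depends on the background offset given under processing, without which it was -1.16 ± 0.31.

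Egr2, best known for its roles in hindbrain patterning and in myelination by Schwann cells, read 6.81, 6.90 and 6.82 in null RNA and 7.11, 7.32 and 7.04 in the heterozygous pools. The groups did not overlap. The log2 ratio was below 0 on all 6 arrays, from -0.50 to -0.14, with a mean of -0.31 ± 0.10 that did not pass the fit over all genes. It passed in 7 of 16 other settings and not in the rest. The 7 include the authors' values, the fit on genes above background alone and a setting added after the data were seen.

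Egr1, a widely used marker of neuronal activity, read 8.75, 8.67 and 8.67 in null RNA and 8.80, 9.06 and 8.60 in heterozygous pools 1, 2 and 3. Only heterozygous pool 2 stood clearly above the null readings, and pool 3 lay below them. The log2 ratio was -0.13 ± 0.24 (SD, n = 3), and without replicate 2 it was 0.0050.

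Ier2, a short immediate early gene that encodes a nuclear protein, was the 1 factor whose null readings all lay above the heterozygous ones. It read 6.33, 6.35 and 6.35 in null RNA and 6.21, 6.19 and 6.31 in the heterozygous pools. The log2 ratio was 0.10 ± 0.063 and was above 0 on all arrays but 1. Its signal was dim, with means of 72.0 over a background of 42.7 in null RNA and 64.7 over 41.2 in heterozygous RNA.

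**Figure D2:**
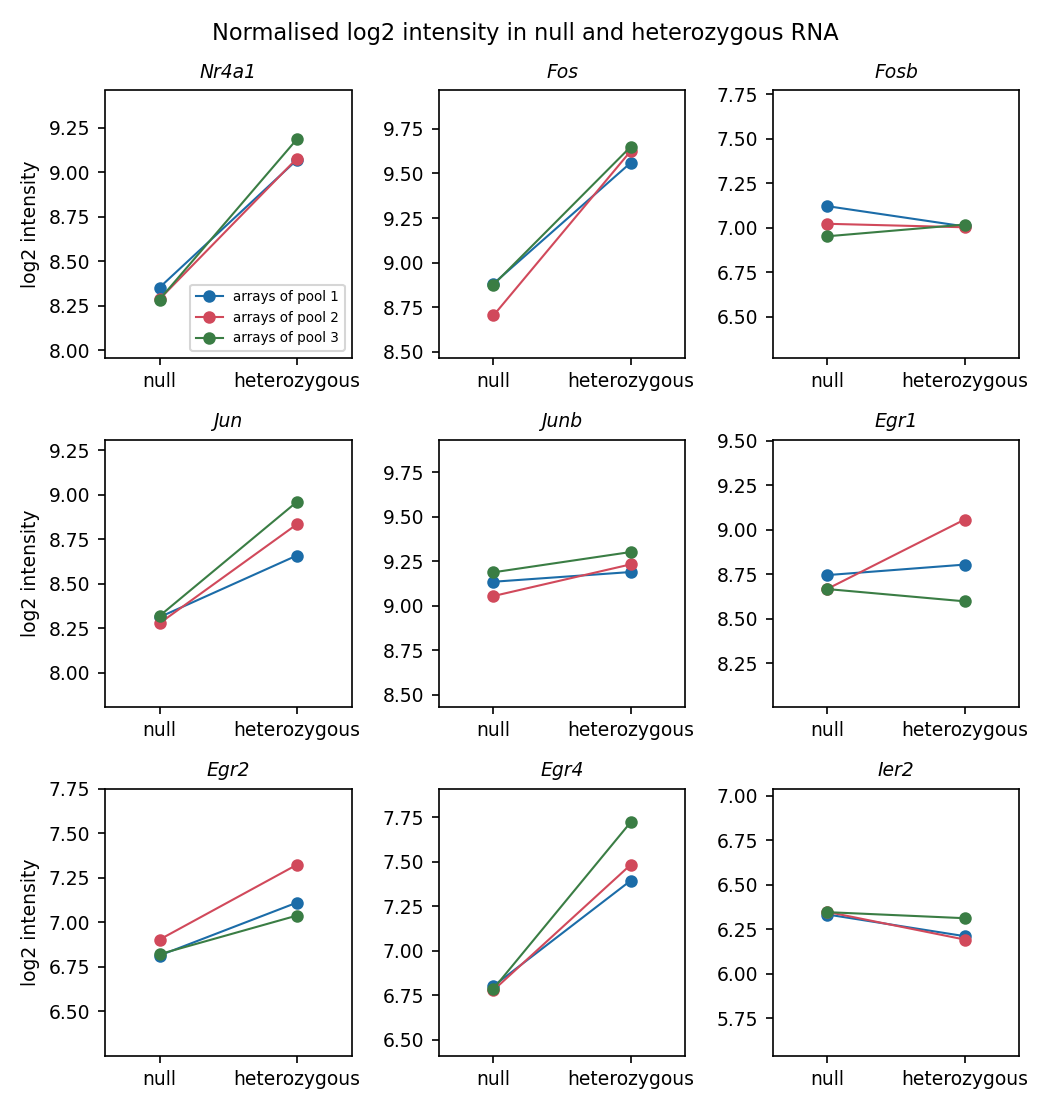
Normalised log2 intensity (vertical axes, all of equal span) in null RNA on the left and heterozygous RNA on the right of each panel, for the 9 factors above background. Each line joins the 2 RNAs of 1 heterozygous pool, averaged over 2 arrays; for Jun and Egr4 the null readings are tightly grouped and the heterozygous pools are spread, and for Egr1 heterozygous pool 2 is the highest reading.

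Counted over the 9 genes above background, null readings lay wholly below the heterozygous ones in 6, wholly above in 1 and overlapped in 2. Over all 18295 genes the shares were 10.6% and 11.8% for the first 2 outcomes. Only 12291 of those genes were above background, and the shares among them alone are not given. The median log2 ratio was -0.31 over these 9 genes, against -0.0074 over all genes above background. It was -0.22 over all 10, against -0.0027 over all genes. By pool, the median of the 9 genes was -0.30, -0.42 and -0.22 for heterozygous pools 1, 2 and 3. The pools did not rank alike from gene to gene. Pool 3 gave the lowest ratio for Nr4a1, Jun, Egr4, Fosb and Ier2, whereas pool 2 gave the lowest for Fos, Junb, Egr1 and Egr2.

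With any 1 pool left out, 0 of the 10 genes and 0 of all genes passed the threshold in limma, and 5 to 6 of the 10 genes and 2956 to 3259 of all genes had an unadjusted p under 0.05. Since no gene of the whole table passed with 2 pools, this count says nothing of these factors in particular. Their ratios without 1 pool lay between -0.84 and -0.75 for Nr4a1, between -0.85 and -0.73 for Fos, between -0.60 and -0.45 for Jun and between -0.82 and -0.65 for Egr4. The same count of 0 was reached with normexp without an offset, plain subtraction, median centring and a trended robust variance. In these fits 6 to 7 of the factors had an unadjusted p under 0.05, beside 2604 to 3641 of all genes. Plain subtraction tested only 9 of the factors and 16322 genes. Among 16 other settings, 11 moved the ratio of each factor above background (12 for Junb), and the others left it as it was. In the settings that moved it, the ratio kept its sign for Nr4a1, Fos, Jun, Junb, Egr2, Egr4 and Ier2. The background offset of 50 mattered most for the dim probes. Without it Egr4 read -1.16 ± 0.31, Egr2 -0.50 ± 0.12 and Ier2 0.30 ± 0.17, whereas Nr4a1 read -0.91 ± 0.11 and Fos -0.87 ± 0.14.

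**Figure D3:**
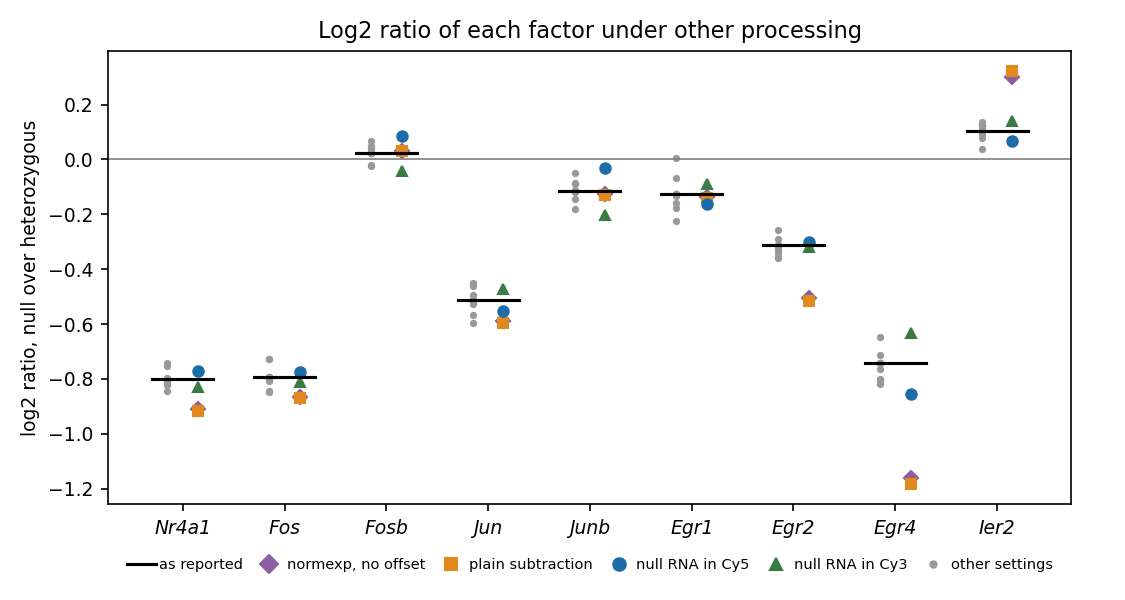
Log2 ratio of null over heterozygous RNA (vertical axis) for the 9 factors (horizontal axis) as reported (black lines) and under 16 other processing settings (points), of which 11 move the ratio (12 for Junb). Egr4, Egr2 and Ier2 move away from 0 without the background offset, and Fosb and Egr1 have settings on both sides of 0.

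These factors are mostly compact genes. Of the 10, 6 spanned no more than 5.81 kb of genome, the limit of the shortest 20% of genes above background. Among the 2454 genes of that size, 9.05% were higher in null RNA and 0.856% lower, with a median log2 ratio of 0.019. The 6 factors of that size were Ier2 (1.52 kb), Junb (1.84 kb), Egr4 (2.47 kb), Jun (3.19 kb), Fos (3.39 kb) and Egr1 (3.75 kb). Of these, Fos, Egr4 and Jun had the low ratios given above, Junb and Egr1 read -0.12 and -0.13, and Ier2 read 0.10. With the trend on span removed, a setting added after the data were seen, 5 of the 10 genes and 681 of 18295 genes passed. The median was then -0.35 for the 9 factors and -0.090 for the other early genes above background described next, against -0.31 and -0.047 with the trend left in.

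Further immediate and delayed early genes were taken from a list of 38, of which 37 were measured. In these, 2 rose, 4 fell and 31 did not pass, and the median log2 ratio was -0.036. That is 5.41% higher and 10.8% lower, against 3.09% and 1.87% over all genes. Dusp1, which encodes a phosphatase that switches off MAP kinases, fell by 0.49 ± 0.029 (limma adjusted p = 0.0260). It read 7.66, 7.64 and 7.63 in null RNA and 8.14, 8.11 and 8.15 in the heterozygous pools, with no overlap and a narrow spread. Maff, a small Maf factor, fell by 0.47 ± 0.027, and the Krüppel-like factor gene Klf6 by 0.39 ± 0.12. Tiparp, named after its value was seen, was the remaining fall, at -0.37 ± 0.11.

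The 2 rises were in Klf2 and Socs3. Klf2, a Krüppel-like factor prominent in endothelial cells under flow, rose by 0.53 ± 0.16 (adjusted p = 0.0432), with levels of 9.95, 10.16 and 9.82 in null RNA and 9.43, 9.79 and 9.13 in the heterozygous pools. These levels did not overlap, and the heterozygous pools differed by more than the null readings did. Socs3, an inhibitor of cytokine signalling named after its value was seen, was the other, at 0.24 ± 0.069. Uncalled genes with large ratios were Klf4 at -0.50 ± 0.24, Nr4a2 at -0.31 ± 0.25, Nfil3 at -0.30 ± 0.21 and the antiproliferative gene Btg1 at -0.26 ± 0.20. In Nr4a2, pools 1 and 2 read -0.39 and -0.51 and pool 3 read -0.026.

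Negative feedback on this pathway was covered by 15 measured genes, with 0 rises, 2 falls and a median of -0.14. That is 13.3% lower, against 1.87% lower and 3.09% higher over all genes. Besides Dusp1, the fall was in Dusp4, a nuclear MAP kinase phosphatase, at -0.57 ± 0.14 (limma adjusted p = 0.0341), with levels of 10.29, 10.42 and 10.24 in null RNA and 10.96, 10.83 and 10.85 in the heterozygous pools. Among 14 AP-1 and related leucine zipper partners, 0 rose and 1 fell, or 7.14%, and the median was -0.0098. The fall was in Maff, also counted above. Of 27 upstream kinases and regulators, which include Srf, Creb1 and the MEF2 genes, 0 rose and 0 fell in limma, and the median was -0.040. The 14 heat shock and stress genes had 1 rise and 1 fall, or 7.14% each, with a median of -0.066. The rise was in the mitochondrial chaperonin gene Hspe1 at 0.54 ± 0.096, and the fall in the chaperone gene Hsph1 at -0.25 ± 0.034.

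**Figure D4:**
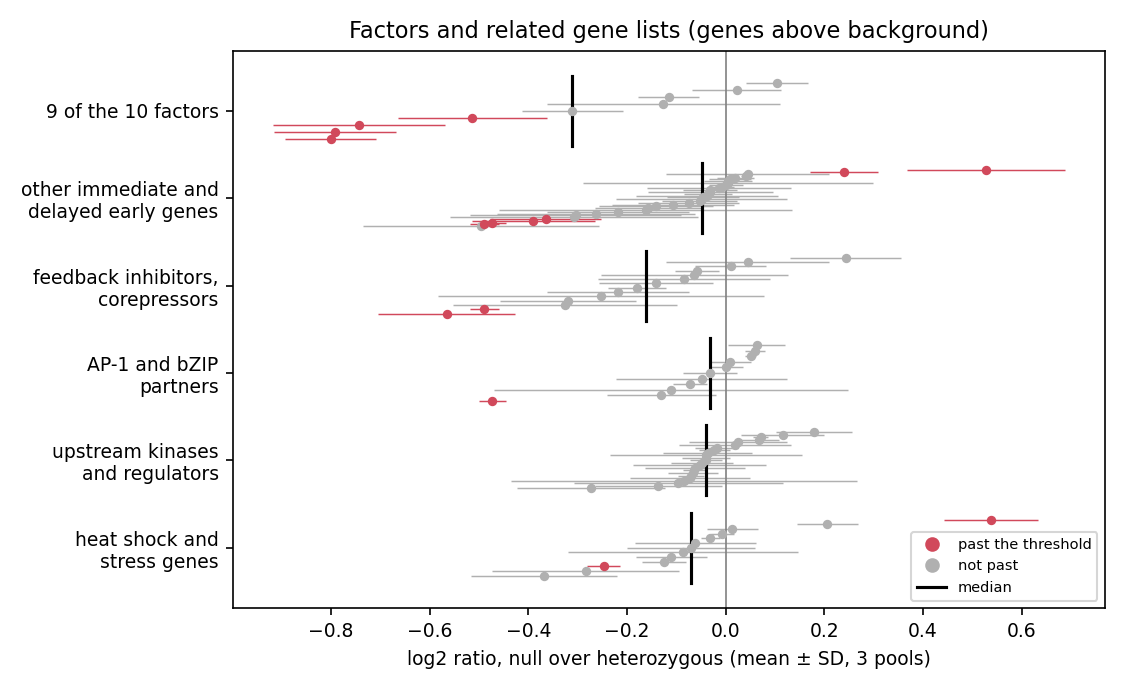
Log2 ratio of null over heterozygous RNA (horizontal axis, mean ± SD of 3 pools) for genes above background, grouped by list down the page. Red points passed the fit over all genes and black bars are list medians, at -0.31 for the 9 factors, -0.047 for other early genes, -0.16 for feedback genes, -0.031 for AP-1 partners, -0.041 for upstream regulators and -0.071 for heat shock genes.

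Among 8280 other genes well above background on all arrays, the 5 whose array values lay closest to the mean profile of the 9 factors were Snx25, Mob1a, Cbfa2t2, Ptpn11 and Ttyh3. Their root mean square differences from that profile over 6 arrays were 0.024 to 0.068. Their log2 ratios ran from -0.37 to -0.33. The profile is a mean over factors whose own ratios ran from -0.80 to 0.10. These genes are thus close to that mean and not to each factor. The 6 arrays share 1 null pool and come in dye-swapped pairs, so this closeness is a description.

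Markers of other cells that could have been sorted were set beside these values. Sums below are of unlogged intensities without the background offset, given as the lowest and highest of 6 arrays. Over all genes, 3.09% were called higher and 1.87% lower. Of 10 endothelial genes, 2 fell, Cd34 at -0.41 ± 0.13 and Sox17 at -0.37 ± 0.12, and the summed normalised intensity of the list was 895 to 987 in null RNA and 1024 to 1420 in heterozygous RNA. Pecam1, a defining endothelial gene, was never well above background. Of 7 pan-neuronal genes, 1 fell, the RNA-binding protein gene Elavl3 at -0.50 ± 0.14, with sums of 2258 to 2549 in null RNA and 2600 to 2818 in heterozygous RNA. The 11 radial glia and progenitor genes had 0 calls, with sums of 5256 to 5832 in null RNA and 3962 to 5186 in heterozygous RNA. Of these genes 1 had a ratio below 0, or 9.09%, against 52.2% of all genes. The largest ratios, none past the threshold, were Pax6 at 0.45 ± 0.40, Hes5 at 0.40 ± 0.20 and Fabp7 at 0.38 ± 0.21. The 11 microglial genes also had 0 calls, with sums of 308 to 371 in null RNA and 274 to 351 in heterozygous RNA, and Cd68 and Tyrobp were never well above background. Of 6 erythroid genes, 1 rose, the embryonic globin gene Hbb-y, with sums of 436 to 519 in null RNA and 349 to 429 in heterozygous RNA. The 8 mesenchymal and the 8 oligodendrocyte and astrocyte genes had 0 calls, and their sums overlapped between the genotypes. The 12 dopaminergic genes summed to 742 to 1046 in null RNA and 830 to 1343 in heterozygous RNA. The part of these cell types in the ratios of the immediate early factors was not tested.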

How the data were processed

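Per the file headers, the deposited scanner tables hold unnormalized spot and local background intensity values for both channels. The authors also deposited normalized intensity values per dye, and log2 values in a series table that equal the log2 of normalized Cy5 over Cy3. The sources used here do not say how the authors normalized. Channels were matched to dyes through the deposited Cy5 and Cy3 values. RNA was amplified before labelling, per the labels' protocols.

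Background was corrected with normexp (offset 50, which shrinks ratios of dim probes toward 0) and loess was run within arrays, giving control spots no weight. Log2 ratios were turned to null over heterozygous and averaged over the 2 arrays of a pool. A gene was represented by its brightest probe. Symbols came from the platform annotation and were updated through RefSeq (GRCm38.p6): 30365 current, 3726 updated and 95 kept. Levels per RNA came from the same values after Aquantile scaling. The summed marker intensities came instead from normexp with no offset, scaled likewise. They were summed unlogged, and their ranges run over 6 arrays. A gene was above background when at least 3 of 6 arrays passed in either RNA. The ratio was tested against 0 in limma 3.58.1 (R 4.3.3). P-values of 18295 genes were adjusted by Benjamini-Hochberg, and the threshold was 0.05. The 1 null pool adds no spread of its own to this test. The fit was also run on simulated data in which the 3 ratios of a gene were independent. That simulation had no shared null pool, so it is no check of the p-values for this design.

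The members and the gene lists were chosen with earlier results of these data known. Named genes were all members, up to 4 called genes of each list with the largest ratios, up to 4 uncalled genes of the first list, the cell markers and the 5 nearest profiles. The closing section gives alternatives for background, normalization, probes, dyes, variance and pools. The number of arrays and pools limits the precision.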

Additional observations from a re-analysis of the deposited data

Results flagged for a closer look

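Among 25 named genes checked over 6 arrays each, Dixon's ratio singled out 1 value. This was Nr4a1 at -0.99, measured for pool 3 with null RNA labelled in Cy3. Its other 5 arrays lay between -0.80 and -0.70. Chance flags about 5% of such checks on independent values. These arrays are dye-swapped pairs that share 1 null pool, so that rate need not hold here.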

How the results depend on the processing

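The 908 calls over all genes and the 4 among the immediate early factors both became 0 with plain background subtraction, normexp with no offset, median centring and a trended robust variance, and ranged from 0 to 0 when each pool was left out, which leaves 2 pools. For the 4 settings other than left-out pools, the cause was not tested. With 6 arrays in 1 model, a dye term and pool as a random block, 2221 genes passed, of which 5 were among the factors. In the other settings 674 to 1070 genes and 3 to 5 factors passed. The count of 3 was on arrays with the null RNA in Cy3, where Nr4a1, Fos and Egr4 passed and Jun did not. The median of the factors above background, -0.31, moved to -0.51 with plain subtraction and to -0.50 with no offset, and ran from -0.36 to -0.26 when each pool was left out. The median of the other early genes above background, -0.047, was -0.12 with plain subtraction, -0.10 with no offset, -0.029 with median centring, -0.10 on arrays with the null RNA in Cy5, -0.020 with it in Cy3, -0.090 with the trend on genomic span removed, which was added after the data were seen, and -0.079 to -0.049 when each pool was left out. Dim probes limit Nr4a3, Ier2, Fosb, Egr2 and Egr4.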
